A study of Macaca mulatta with 28 samples.

Results

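The cytosolic ribosomal protein genes are described here in a block of macaque brain that contained the central nucleus of the amygdala, a GABA-rich output nucleus studied in alcohol drinking. Members were taken by symbol (RPL or RPS with a number, the stalk genes RPLP0, RPLP1 and RPLP2, and RPSA), without the RPS6K kinases, and had to reach a normalized read count of 10 in at least 5 of the 28 labelled libraries. Of 15521 genes listed, 81 symbols matched and 79 passed the level filter, out of 13022 genes that passed it in all. They comprised 41 core genes of the large subunit, the 3 stalk genes, 31 core genes of the small subunit and 4 paralogs of core genes (RPL22L1, RPL26L1, RPL39L and RPS27L). The 2 symbols that did not pass were RPL3L and RPL10L, paralogs known from human muscle and testis, which reached at most 8.98 and 1.32 normalized reads in any library. RPL39L and RPL39 lay just inside the filter, with 7 and 13 libraries at 10 or more. RPL36A, RPL38, RPL7L1, RPS4Y1 and RPS4Y2 were not analysed here.

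Ribosomal proteins wrap the ribosomal RNA of the large and small subunits that read messenger RNA and join amino acids. Their messages are known for short transcripts, high abundance and a pyrimidine tract at the 5′ end (the TOP motif), through which mTOR signalling and LARP1 set their translation as a group. Several free ribosomal proteins, RPL5 and RPL11 first among them, bind MDM2 and so link ribosome assembly to p53.

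The animals were 28 male rhesus macaques, 1 library each, that all drank 4% (w/v) ethanol by choice for over 12 months, 22 hours a day, after about 90 days of induction, so no group was free of ethanol. Very heavy drinkers (VHD, n = 6) had a mean daily intake above 3 g/kg and exceeded 4 g/kg on 10% or more of their days. Heavy drinkers (HD, n = 7) reached 3 g/kg on at least 20% of days. Binge drinkers (BD, n = 5) reached 2 g/kg on at least 55% of days with a blood ethanol of at least 80 mg/dl recorded each year, and low drinkers (LD, n = 10) met none of these. HD and VHD animals together are called heavier drinkers (n = 13), and LD and BD animals lighter drinkers (n = 15). The animals came from cohorts 4, 5, 7a and 7b, whose mean ages at induction were 8.24, 5.63, 4.18 and 5.69 years. Their end ages were 9.98, 7.15, 5.7 and 7.18 years, in the same order. Cohort 5 held 7 heavier animals and no lighter one, cohorts 4 and 7b held 1 heavier animal each, and VHD met LD animals in cohort 7a alone. Animals are numbered within their category in deposit order.

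The libraries held 1910514 to 25928489 reads assigned to genes. BD 1, LD 1 and HD 1, all of cohort 4, had the fewest, and BD 1 and LD 1 also lay at the opposite ends of the ribosomal protein level. Of 12 neuron, 10 astrocyte and 9 GABA neuron markers, all passed the level filter, and none was at 0 in every library. The summed level of 7 markers of basal forebrain cholinergic neurons ranged over libraries from 55.1 to 22917 normalized reads. Whether the blocks differed in what they held beside the nucleus was not tested. In such bulk samples, fewer cells of a type and less RNA per cell cannot be told apart.

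Per 1000 exon bases, the members had a median level of 3993 normalized reads, against 160 over all genes tested, and 70 of the 79 lay above the 90th percentile of all genes. The highest levels per 1000 bases were those of RPS27 with 16143 ± 2786 (SD, n = 28), RPS21 with 13724 ± 2348, RPS18 with 11172 ± 2130, RPS7 with 10144 ± 1483 and RPL21 with 9479 ± 1387. RPS27, RPS21, RPS18 and RPS7 belong to the small subunit and RPL21 to the large one. Library by library and per exon base, RPS27 lay above RPS21 in 26 of 28, RPS21 above RPS18 in 26, RPS18 above RPS7 in 27 and RPS7 above RPL21 in 23.

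At the other end, RPL39L had 17.6 ± 9.60 normalized reads per 1000 bases, RPL39 28.7 ± 14.9, RPL28 166 ± 19.1, RPS27L 179 ± 45.5 and RPL31 274 ± 397 (SD, n = 28). RPL39 lies in the exit tunnel of the large subunit, and RPL39L is its testis-enriched paralog in human and mouse. The 2 genes rested on means of 10.2 and 8.07 reads per library. RPL28 has 5 modelled exons that include 1 of 3698 bases, which held 15.7% to 26.1% of its reads. How the authors assigned reads that match more than 1 place is not given in the sources used here. Ribosomal protein genes have many near-identical processed copies, so the levels of single members are uncertain. RPL27A was modelled as a single exon of 765 bases and RPS10 as one of 85 bases.

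**Figure D1:**
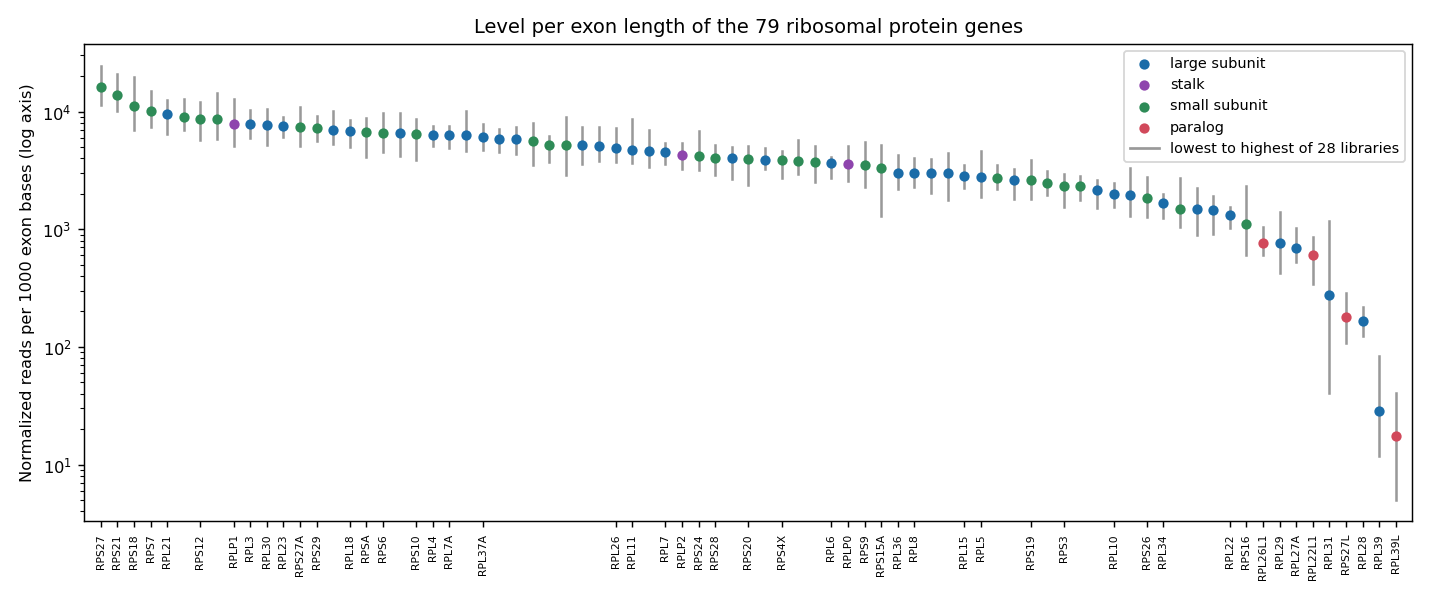
Mean level of each of the 79 genes in normalized reads per 1000 exon bases (log axis), ordered from high to low and coloured by part of the ribosome; the grey line runs from the lowest to the highest of 28 libraries, and genes named in the text are labelled. Most genes lie within 1 decade, RPL31 has the longest line among genes above 100 normalized reads per 1000 bases, and RPL39 and RPL39L lie lowest.

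The paralogs differed in their level relative to their core gene. RPL22L1, which in mouse stands in for RPL22, reached 46.4% ± 10.1 (SD, n = 28) of the RPL22 level per exon base. RPL26L1 reached 15.9% ± 2.47 of RPL26, RPS27L 1.11% ± 0.251 of RPS27, and RPL3L 0.0120% ± 0.0207 of RPL3.

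In all, the 79 genes took 1.30% to 2.26% of a library's gene reads, with a median of 1.71%, on 43091 to 493039 reads. The mean share of the 10 LD animals was 1.67% ± 0.199 (SD), that of the 5 BD animals 1.84% ± 0.278, that of the 7 HD animals 1.63% ± 0.209 and that of the 6 VHD animals 1.62% ± 0.105. The 4 categories overlapped, and the lowest and highest shares belonged to LD 1 and BD 1.

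**Figure D2:**
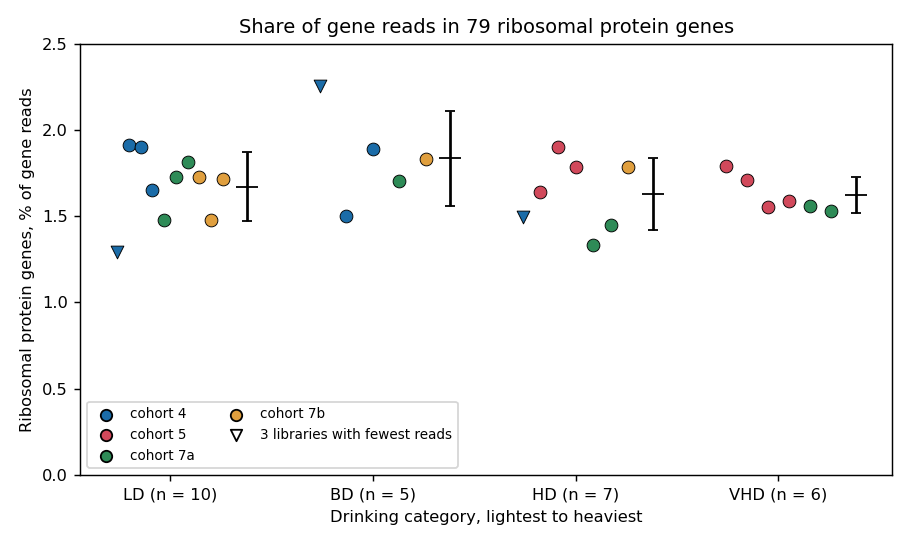
Share of gene reads in the 79 ribosomal protein genes, 1 point per library, by drinking category and coloured by cohort; triangles are the 3 libraries with the fewest reads and black bars the category mean ± SD. The categories overlap, and the 2 extremes, 1.30% in LD 1 and 2.26% in BD 1, are triangles.

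The members moved together from animal to animal. The correlation of a gene with the mean of the other 78, on log2(value + 1) over 28 libraries, had a median of 0.80, and 69 of 79 genes were above 0.5. Without the 3 libraries with the fewest reads the median was 0.71, with 59 genes above 0.5. These points share library, depth and scaling. RPS27A, made as a fusion with ubiquitin, followed the others most closely (r = 0.96), then RPS6 (r = 0.94), the target of S6 kinase.

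RPL31 (r = 0.19), RPL29 (r = 0.24), RPL39 (r = 0.32), RPL22L1 (r = 0.32), RPL39L (r = 0.36) and RPS15A (r = 0.38) followed them least over all 28 libraries. Which genes followed least depended in part on the 3 libraries with the fewest reads. Without these, RPL29 (r = 0.003), RPL8 (0.06), RPL39 (0.07), RPL39L (0.08) and RPS16 (0.22) were lowest. RPL31 then had r = 0.26 and RPL22L1 r = 0.62. RPL31, RPS15A, RPL29 and RPS16 also varied most among the 77 members with a mean of at least 50 normalized reads, with SDs of log2(value + 1) of 1.63, 0.58, 0.42 and 0.39, and RPS27L followed with 0.37. The steadiest were RPL15 (0.13), RPL22 (0.14), RPL6 (0.14), RPL7A (0.14) and RPL4 (0.15), all of the large subunit. The median over the 77 was 0.21, against 0.24 over the 11249 genes at that level.

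RPS15A, a small subunit gene, had 1075, 1161 and 2179 normalized reads in VHD animals as lowest, median and highest, and 1061, 1766 and 2610 in HD animals. In BD animals it had 2726, 1066, 1684, 763 and 1289, and in LD animals 677, 2362 and 2595 as lowest, median and highest. Its values thus spread 4.03-fold in a run without a gap, and the 4 categories overlapped.

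**Figure D3:**
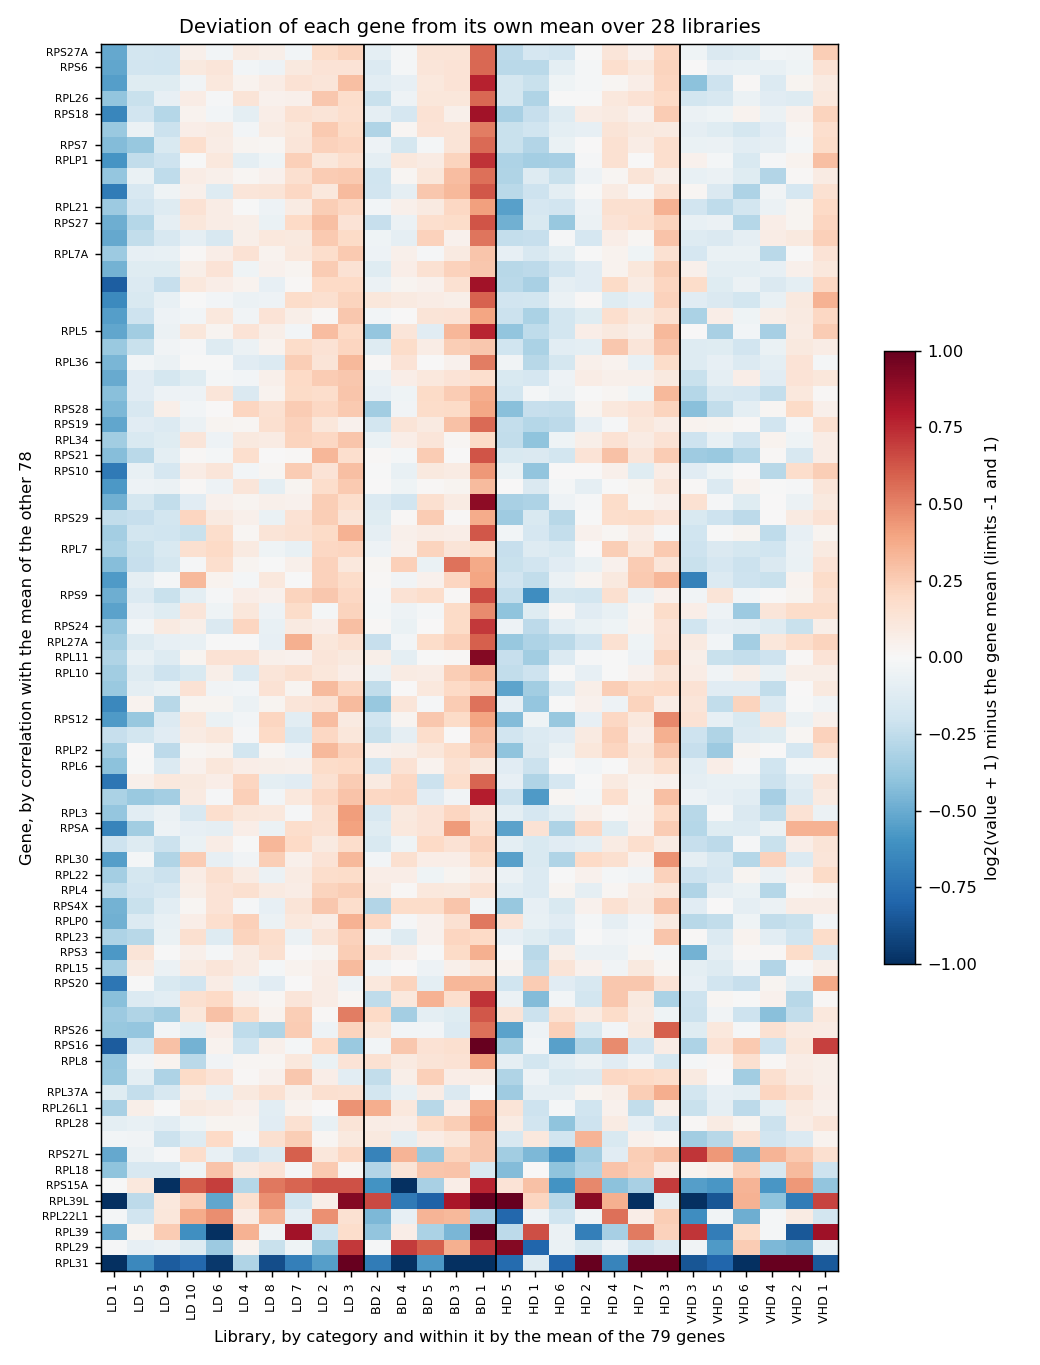
Deviation of each gene (line) from its own mean over 28 libraries, on log2(value + 1), with libraries by category from LD to VHD genes ordered by their correlation with the other members and those named in the text labelled. Columns are mostly of 1 colour, LD 1 low and BD 1 high, while the last lines, RPL31, RPL29, RPL39, RPL22L1 and RPL39L, keep patterns of their own.

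Among genes outside the rule with a mean of at least 50 normalized reads, those most like the mean of the members over 28 libraries included FAU (r = 0.95), PFDN5 (0.88), GNB2L1 (0.85), CWC15 (0.85), MAT2B (0.83), ATP5E (0.83) and ETFA (0.83). FAU encodes a ribosomal protein fused to a ubiquitin-like one, and GNB2L1 the small subunit scaffold RACK1. The most opposed were TAOK1 (−0.88), CPEB4 (−0.82), KIAA1109 (−0.81) and PAPD5 (−0.81). The 8 alike genes had 440 to 2518 exon bases and the 4 opposed ones 7777 to 15544. Over genes that are not members, the mean of the shortest 20% by exon length (59 to 1588 bases) had r = 0.56 with the members and that of the longest 20% r = −0.68, and 72 of the 79 members belonged to the shortest 20%. The mean of pan-neuronal markers had r = −0.01, of astrocyte markers 0.17 and of oligodendrocyte markers −0.16. GABA neuron markers had r = 0.26, striatal neuron markers 0.15, cortical neuron markers −0.04, cholinergic markers −0.03 and microglia markers 0.17. Long RNAs retained in the nucleus had r = −0.33.

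The comparison of heavier with lighter drinkers asked whether ribosomal protein messages differ with intake once cohort is in the fit. Cohort 5 (3 HD and 4 VHD animals) held no lighter animal, so its cohort term takes up its level. Its animals therefore add nothing to the fitted folds. These rest on the heavier animals of cohorts 4, 7a and 7b, which number 1, 4 and 1. The ranges, means and counts of heavier animals printed beside the folds do include cohort 5. No member passed the threshold (adjusted p under 0.05 over 13022 genes), nor did any gene, so the background was 0% (limma; 5 of 79 members, or 6.33%, had an unadjusted p under 0.05, all of them lower, against 4.18% of all genes, 2.27% lower and 1.9% higher). That count was 18 without LD 1, 16 without HD 7 and 0 without HD 1. edgeR and DESeq2 on the recovered reads also called no member, with 4 and 6 at an unadjusted p under 0.05. The fitted values lay slightly below 1-fold for 74 of 79 members, with a median log2 of −0.12, against 6511 of 13022 and 0.00 over all genes. The size is small: 72 of the 79 members had a 95% interval within 1.5-fold either way, and all but RPL31 within 2-fold. Scaling to library totals or by TMM factors gave medians of −0.14 and −0.12. The members moved together from animal to animal, so counts of members on 1 side, here and below, are not independent observations. Without a cohort term, the members' mean log2 deviation from their own means was −0.03 ± 0.13 in heavier and 0.03 ± 0.20 in lighter drinkers (SD, n = 13 and 15).

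The large subunit core had 39 of 41 members with a fitted value below 1-fold (median −0.12). RPL27A, which sits near the exit side of the subunit, had 399, 508 and 606 normalized reads in heavier drinkers as lowest, median and highest, and 409, 517 and 786 in lighter drinkers. The groups overlapped. The fitted fold was 0.834 (95% interval 0.714 to 0.973; adjusted p = 0.998 by limma), and 7 of 13 heavier animals lay below the mean of the lighter ones. RPL11, an MDM2-binding protein, had 2214, 2729 and 3293 normalized reads in heavier drinkers, and 2296, 2910 and 5323 in lighter drinkers, the top value being BD 1. Of heavier animals, 11 of 13 lay below the mean of the lighter ones, and the ranges overlapped. The fitted fold was 0.845 (0.723 to 0.989; adjusted p = 0.998 by limma).

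The fitted folds of RPL34, RPL30 and RPL36 were 0.877, 0.848 and 0.875. RPL36, a small protein of the large subunit, had 1230, 1415 and 1688 normalized reads in heavier drinkers and 1084, 1494 and 2124 in lighter drinkers. On the higher side stood RPL31, at 30.5, 55.9 and 768 normalized reads in heavier drinkers and 29.2, 51.2 and 833 in lighter drinkers, with a fitted fold of 1.73 and an interval of 0.634 to 4.75. Its medians were close, its spread came from 6 libraries described further on, and without HD 7 its log2 value was −0.046. RPL39, on few reads, had a fitted fold of 1.14 (0.700 to 1.84). RPL3, RPL7 and RPL10, core genes with a paralog elsewhere in the genome, had fitted folds of 0.922, 0.918 and 0.938.

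The 3 stalk genes, whose proteins recruit elongation factors, had fitted folds of 0.925 (RPLP0), 0.857 (RPLP1) and 0.909 (RPLP2). RPLP0 averaged 3724 ± 333 normalized reads in heavier and 4214 ± 657 in lighter drinkers (SD, n = 13 and 15).

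The small subunit core had 29 of 31 members with a fitted value below 1-fold (median −0.12). RPS9, which helps to secure decoding, had 1632, 2462 and 2811 normalized reads in heavier drinkers and 1787, 2581 and 3936 in lighter drinkers. The groups overlapped, and 10 of 13 heavier animals lay below the mean of the lighter ones. Its fitted fold was 0.840 (0.709 to 0.996; adjusted p = 0.998 by limma). RPS19 and RPS24, genes of Diamond-Blackfan anaemia in humans, had fitted folds of 0.896 and 0.918, RPS4X had 0.925, RPS6 0.918, RPS27A 0.922 and RPSA, also known as the laminin receptor precursor, 0.935. RPS20 and RPS26 had 1.01 each, and both turned below 1-fold with values scaled to library totals, among other settings.

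Of 11 genes whose proteins are known to bind MDM2, 11 had a fitted value below 1-fold (median −0.12), RPL5 at 0.887-fold and RPL23 at 0.974-fold among them. Of 16 Diamond-Blackfan genes 14 did, and none of either list passed the threshold. These lists share members with the subunit lists, and the share of all members below 1-fold, given above, was similar. The paralogs RPL22L1, RPL26L1 and RPS27L had fitted folds of 0.819, 0.876 and 0.836, and RPL39L had 1.02, a direction that turned without the cohort term, among other settings.

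Within cohort 4, where 1 heavier animal met 7 lighter ones, the median difference of the members was −0.26 on the log2 scale. There 71 of 79 members were lower, against 49.0% of all genes. Within cohort 7a, with 4 against 4, it was −0.14, with 75 of 79 members lower, against 53.3% of all genes. Within cohort 7b, with 1 against 4, it was 0.06, with 55 members higher and 24 lower, against 46.4% of all genes lower. Of the 79 genes, 20 were lower in all 3 cohorts and none was higher in all 3. The share of all genes for that count is not given here. Without HD 1, the only heavier animal of cohort 4, the fitted median was −0.08, with 68 members lower.

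Other measures moved beside it. Among genes that are not members, the shortest 20% by exon length had a fitted median of −0.07, with 1738 of 2534 genes lower, and the longest 20% 0.06, with 762 of 2605 lower. Of 9 GABA neuron markers 8 had a fitted value below 1-fold (median −0.29), with summed levels of 11941 to 26662 normalized reads in heavier and 12917 to 29001 in lighter drinkers. All 7 cholinergic markers had a fitted value below 1-fold (median −1.31), with sums of 55.1 to 22917 in heavier and 70.6 to 10770 in lighter drinkers. All 7 cortical neuron markers had one above 1-fold (median 0.67), with sums of 8984 to 38881 in heavier and 11091 to 34716 in lighter drinkers. Without a cohort term, the median sums of both lists went the other way. Cholinergic sums had medians of 1194 in heavier and 790 in lighter drinkers, and cortical sums 17428 and 18549. The part of these measures in the members' values was not tested. With neuron, astrocyte and oligodendrocyte marker scores in the fit, the members' median was −0.13. That fit held no score for GABA, cholinergic or cortical neurons, so it does not adjust for those lists.

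**Figure D4:**
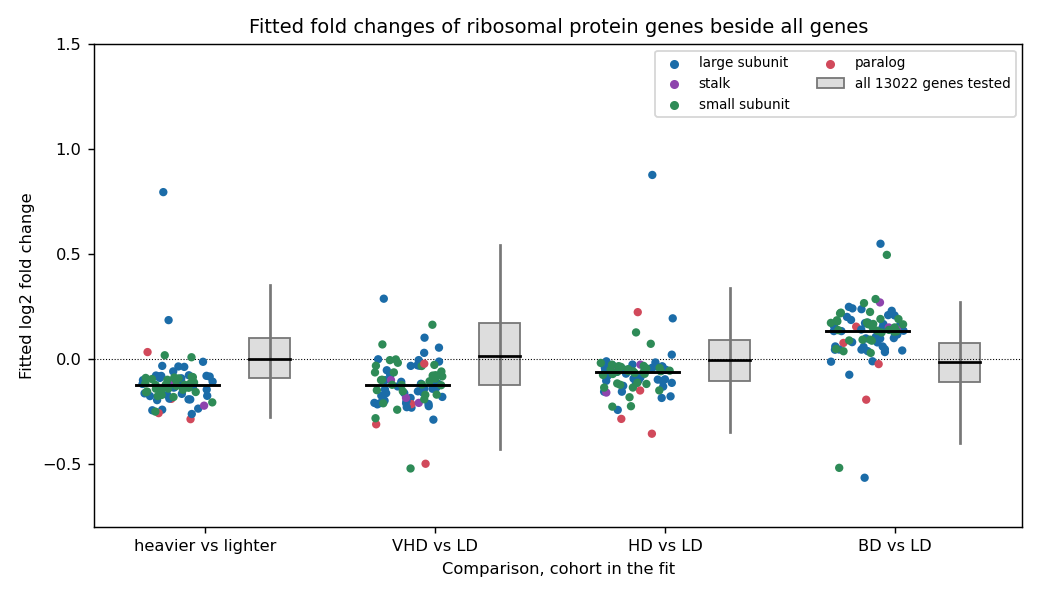
Fitted log2 fold changes of the 79 genes (points, coloured by part of the ribosome; thick line, their median) beside all 13022 genes tested (box, 25th to 75th percentile with the median; line, 5th to 95th percentile) in 4 comparisons with cohort in the fit. The members sit in narrow bands slightly below 0 in the 3 comparisons of heavier categories and above 0 for BD against LD; no gene passed the threshold, and LD animals enter all 4.

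VHD animals were set against LD animals in a fit of all 4 categories with cohort. No member passed the threshold (0% of 13022 genes did), and 2 of 79 (2.53%) had an unadjusted p under 0.05, both lower, against 8.57% of all genes (4.37% lower, 4.2% higher), by limma. The count was 12 without LD 1. No member separated VHD from LD animals without overlap, which 0.0845% of all genes did. edgeR and DESeq2 called no member, with 4 each at an unadjusted p under 0.05. Fitted values were below 1-fold for 73 of 79 members (median −0.12, against 0.01 over all genes). Without the cohort term the median was −0.05, with 48 lower.

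RPL22L1 had 190, 272 and 309 normalized reads in VHD animals, and 257, 322 and 404 in LD animals. All 6 VHD animals lay below the LD mean, though the ranges overlapped. The fitted fold was 0.707 (0.532 to 0.941; adjusted p = 0.542 by limma). Relative to RPL22, per exon base, it averaged 40.6% ± 7.81 in VHD and 51.6% ± 6.94 in LD animals (SD, n = 6 and 10). BD and HD animals averaged 44.3% and 45.7%. This ratio has no cohort term. It averaged 41.3% ± 9.18 in cohort 7a and 56.2% ± 4.40 in cohort 7b, which held LD but no VHD animals (SD, n = 8 and 5).

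RPS21, a small subunit gene, had 3448, 3836 and 4701 normalized reads in VHD animals and 3331, 4493 and 5619 in LD animals. The ranges overlapped, and 4 of 6 VHD animals lay below the LD mean. The fitted fold was 0.822 (0.677 to 0.998; adjusted p = 0.583 by limma). RPL34 and RPL30 had fitted folds of 0.852 and 0.818.

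On the higher side, RPL8, which contacts the peptidyl transferase centre, had 2550, 2639 and 2875 normalized reads in VHD animals and 1971, 2568 and 2841 in LD animals. All 6 VHD animals lay above the LD mean within overlapping ranges, at a fitted fold of 1.07 (0.938 to 1.23; adjusted p = 0.788 by limma). RPS16, RPL39, RPS26 and RPL18 had fitted folds of 1.12, 1.22, 1.05 and 1.04, of which the last 3 turned below 1-fold with marker scores in the fit, among other settings.

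Oligodendrocyte markers moved beside this comparison: 11 of 11 had a fitted value above 1-fold (median 0.45), and their summed level ran from 69318 to 131873 in the VHD libraries, against 45294 to 98635 in those of LD. Of 9 GABA neuron markers 5 had a fitted value below 1-fold (median −0.53), and 5 of the 9 had an unadjusted p under 0.05, 4 of them lower. All 9 striatal neuron markers lay below 1-fold (median −0.32), with sums of 6133 to 20183 in VHD and 7716 to 58281 in LD animals. The summed level of the 7 cholinergic markers was 129, 10321 and 22917 in VHD animals as lowest, median and highest. In LD animals it was 325, 851 and 10770. Of 7 long RNAs retained in the nucleus 4 had an unadjusted p under 0.05, and the median was −0.06. The part of these lists in the members' values was not tested. With the marker scores in the fit the members' median was −0.20, with 77 of 79 lower and still none past the threshold. No score for GABA, cholinergic or striatal neurons was among them. Cohort 7a held 2 VHD and 3 LD animals, and within it the median difference was −0.10.

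HD against LD gave no member past the threshold (0% of genes; 1 member, or 1.27%, at an unadjusted p under 0.05, lower, against 3.96% of all genes, 2.56% lower and 1.41% higher, by limma; edgeR and DESeq2, 0 called and 1 each at an unadjusted p under 0.05). The members' median was −0.06, with 73 of 79 below 1-fold, against −0.01 over all genes. Without HD 1 it was −0.02, without HD 7 −0.12 and without LD 1 −0.11. All 7 cholinergic markers lay below 1-fold beside it (median −2.26, 5 of 7 at an unadjusted p under 0.05), with sums of 55.1 to 2013 in HD and 325 to 10770 in LD animals. All 9 GABA neuron markers lay below 1-fold (median −0.30) and all 7 cortical neuron markers above (median 0.66). Without a cohort term, the median cortical sum was 18026 in HD and 20946 in LD animals. The part of these markers in the members' values was not tested. RPL27A had 399, 454 and 576 normalized reads in HD animals, and 409, 506 and 665 in LD animals, which overlapped; its fitted fold was 0.845 (0.714 to 0.999; adjusted p = 0.995 by limma). RPS9 and RPS27L had fitted folds of 0.855 and 0.781. RPL31, RPS20 and RPL39L had 1.84, 1.09 and 1.17. Single libraries turned the sign of 2 of these, RPL31 to a log2 value of −0.0095 without HD 7 and RPL39L to −0.054 without HD 5.

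BD against LD went the other way in sign. No member passed the threshold (0% of genes), and 8 of 79 (10.1%) had an unadjusted p under 0.05, all higher, against 3.52% of all genes (1.37% higher, 2.14% lower), by limma. No member separated the groups without overlap, as 0.00768% of all genes did. edgeR and DESeq2 called none, with 9 and 10 at an unadjusted p under 0.05. The fitted median was 0.13, with 72 of 79 above 1-fold, against −0.01 over all genes. This direction turned without BD 1, LD 1 and HD 1 together, at a median of −0.01 with 45 members lower. Without BD 1 or without LD 1 alone the median was 0.05. All 11 oligodendrocyte markers lay above 1-fold beside it (median 0.29), with sums of 72448 to 94409 in BD and 45294 to 98635 in LD animals. Of 9 striatal neuron markers 8 lay below 1-fold (median −0.20). Their part in the members' values was not tested.

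RPL8 had 3431, 2873, 2857, 2750 and 2824 normalized reads in the BD animals, and 1971, 2568 and 2841 in LD animals as lowest, median and highest. BD 1 was the highest, and the other BD values met the top of the LD range. The fitted fold was 1.18 (1.06 to 1.31; adjusted p = 0.9999 by limma), and the log2 value was 0.24, or 0.13 without the 3 shallow libraries. RPL29, a heparin-binding protein of the large subunit, had 826, 499, 645, 816 and 763 normalized reads in BD animals, and 388, 480 and 821 in LD animals. All 5 BD values lay above the LD median, with overlap through LD 3 and LD 4, at a fitted fold of 1.46 (1.10 to 1.94; adjusted p = 0.9999 by limma). RPL28 had 890, 705, 792, 699 and 762 in BD animals and 618, 642 and 745 in LD animals, a fitted fold of 1.15. On the lower side RPS15A, RPL22L1 and RPL37A had fitted folds of 0.698, 0.874 and 0.949.

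With the categories LD, BD, HD and VHD as a rank, no member passed the threshold (0% of genes; 1 member at an unadjusted p under 0.05, RPL22L1 at 0.893-fold per step, against 4.85% of all genes, 2.68% lower and 2.17% higher, by limma). RPL34, RPL30, RPS28 and RPL26L1 came next, at 0.952-, 0.943-, 0.948- and 0.956-fold per step, and 67 of 79 members lay below 1-fold. Between cohorts, with category in the fit, no member passed either (0% of genes; 3 of 79, or 3.80%, at an unadjusted p under 0.05 against 9.41% of all genes). RPL30 and RPS12 were among these. RPL30 had 2729, 4057 and 5027 normalized reads in cohort 4, 3649, 4473 and 5466 in cohort 5, 2745, 3676 and 4487 in cohort 7a, and 3256, 4199 and 4789 in cohort 7b, so that all 4 overlapped. RPS29 and RPL37A came next in p. Cohort also carries age and category, and these cannot be told apart.

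No gene of the other translation lists passed the threshold in heavier against lighter drinkers. The 4 ribosomal genes outside the naming rule had a median of −0.12, and FAU, GNB2L1 and RPL36AL among them had fitted folds of 0.886, 0.927 and 0.915. FAU averaged 3330 ± 310 normalized reads in heavier and 3565 ± 502 in lighter drinkers (SD, n = 13 and 15). Of 17 elongation and other factors known for TOP messages, 12 lay below 1-fold (median −0.07), led by BTF3, EEF1G and HNRNPA1 at 0.867-, 0.899- and 0.920-fold.

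The other initiation factors had a median of −0.04 (19 of 28 lower; EIF2B5 0.903-, EIF2B1 0.907- and EIF4G3 1.09-fold), and genes that build ribosomes −0.01 (25 of 42 lower; NVL 1.17-, SBDS 0.916- and MDN1 1.17-fold). Subunits of RNA polymerases I and III, which transcribe ribosomal RNA, had a median of −0.01 (POLR3G 1.29-, POLR3B 1.08- and POLR3D 0.892-fold). Genes of the mTOR and LARP1 axis had 0.02 (EIF4EBP1 0.826- and LARP1B 1.10-fold). Mitochondrial ribosomal proteins, which build a separate ribosome, had 59 of 69 genes below 1-fold and a median of −0.11, with MRPL13, MRPL49 and MRPS33 at 0.811-, 0.862- and 0.875-fold.

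Exon use asks whether 1 exon of a gene shifts against the rest of it. Of 74 members with at least 3 measured exons none passed the threshold in heavier against lighter drinkers. Of all 9817 genes 9 did (0.0917%), by the F test of limma's diffSplice. By that test 3 members (4.05%) had an unadjusted p under 0.05, against 1.73% of all genes. These were RPL30, RPL6 and RPS7. The Simes test of diffSplice called 103 genes (1.05%) and no member. It gave 6 members (8.11%) an unadjusted p under 0.05, against 5.65% of all genes. The 146-base exon of RPL30 (chromosome 8, 96454291 to 96454436) had 562, 820 and 1882 normalized reads in heavier drinkers and 635, 948 and 1683 in lighter drinkers, in overlapping ranges. Coordinates are those of the deposited exon table, whose genome build is not given in the sources used here.

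Single exons of 6 genes split the animals into a high and a low set, and 5 of these exons are described. After values had been seen, exons with a mean of at least 20 normalized reads were searched for a gap of at least 2-fold between neighbouring libraries with at least 2 libraries on each side. This held for 6 of 386 member exons (1.55%), each in a different gene, and for 585 of 86933 exons over all genes (0.673%). No test was made, as the rule was chosen on these values.

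The last of 3 exons of RPL31 (chromosome 2a, 96335794 to 96336273, 480 bases) had 657 and 583 normalized reads in VHD 2 and VHD 4, 691, 745 and 725 in HD 2, HD 3 and HD 7, and 796 in LD 3. The other 22 libraries had 16 to 53. The high animals were 5 of 13 heavier and 1 of 15 lighter drinkers, 4 of them from cohort 5, which held heavier animals only. Its 2 other exons together had 8 to 42 normalized reads in every library. RPL31 was the only member with such a gap at gene level, among 48 of 11249 genes (0.427%).

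The 68-base exon of RPL4 with the highest coordinates of its 10 (chromosome 14, 43172628 to 43172695) had 181 and 137 normalized reads in VHD 2 and VHD 5, 160 in HD 6, 160 and 177 in BD 1 and BD 2, and 70 in LD 1. The other 22 libraries had 0 to 3. The rest of RPL4 stayed between 7379 and 10768 normalized reads in all libraries. The 1261-base exon of RPS3 (chromosome 11, 66814936 to 66816196) had 521 to 657 in 8 libraries and 30 to 89 in the other 20. The high set held 2 animals of every category and all 4 cohorts.

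The 72-base exon of RPS7 (chromosome 2a, 3539055 to 3539126) was low in 3 lighter animals, with 186 and 210 normalized reads in BD 4 and BD 5 and 180 in LD 5, against 586 to 1331 in the other 25. In heavier drinkers it had 683, 795 and 948, and in lighter drinkers 180, 884 and 1331. The 65-base exon of RPL29 (chromosome 3, 107988091 to 107988155) had 250 in HD 5 and 254 in BD 4, both of cohort 7a, against 31 to 87 in the rest. All VHD and HD animals were in the high set of RPS7, no BD animal was in that of RPL31, and no VHD or LD animal was in that of RPL29.

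**Figure D5:**
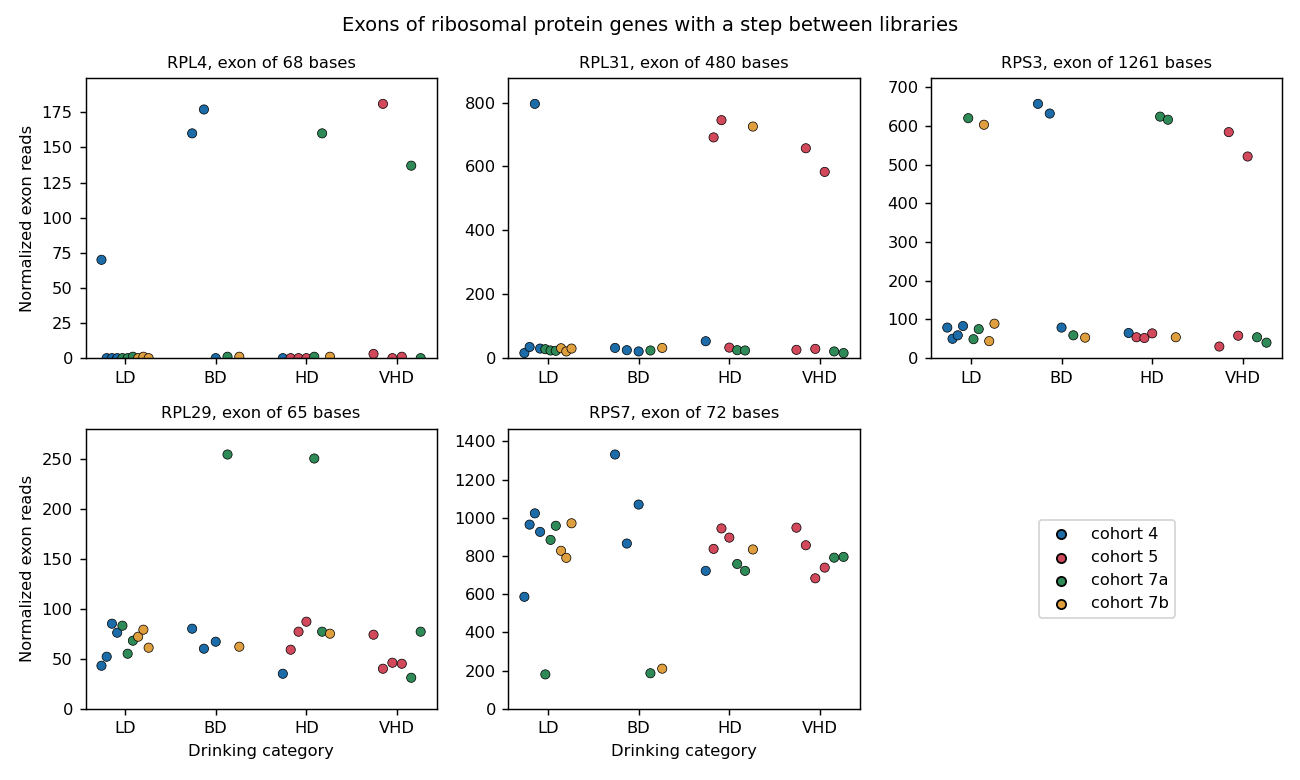
Normalized reads of 5 exons with a gap between libraries, 1 point per animal, by drinking category and coloured by cohort, on linear axes from 0. In each panel the animals form a high and a low set with nothing between, as in RPL31 (583 to 796 against 16 to 53) and RPL4 (70 to 181 against 0 to 3).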

How the data were processed

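Strand-specific RNA-seq libraries were made after removal of ribosomal RNA. Per the submitters' processing notes, the tools were CASAVA, FastQC, STAR 2.3.0e and edgeR. The gene table was deposited as upper-quartile normalized reads (a signal per gene), and the exon table, deposited by the authors, holds a whole-number score per exon, close to the gene's normalized reads when summed. Gene values were whole multiples of 1 read, so reads were recovered (100% of values within 0.02 of a whole read). 2 of 30 columns matched no labelled sample and were not used. Values were tested as log2(value + 1) with limma 3.58.1 in R 4.3.3 (eBayes with trend, cohort as a term, Benjamini-Hochberg over 13022 genes, threshold 0.05, two-sided). Fold changes are on that scale and understate changes of low genes. On recovered reads, edgeR 4.0.16 called 0 genes and DESeq2 1.42.0 called 1 in heavier against lighter drinkers. Exon use was tested with diffSplice in genes with at least 3 exons.

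Named are the members with the smallest p in each direction (6 for heavier against lighter, 5 for VHD against LD, 3 for HD and BD against LD), the 5 with the smallest p for the trend and cohorts and 3 for exon use, the stalk genes, paralog pairs, RPL5, RPL11, RPL23, RPSA, RPS6, RPS19, RPS24 and RPS27A, the 5 extremes of level and of spread at each end, the 8 most alike and 4 most opposed other genes, and 3 genes per other translation list. Results of a few genes that this rule names are not reported here. Exons with a gap were added after their values were seen. The members and lists were chosen with earlier results of these data known. Numbers that name animals do not pair them. Libraries of 1 category differed by a chi-square per gene of 9.67 to 111, so none was a repeat. Alternatives were pseudocounts, filters, scalings, weights, covariates, other tools, single cohorts and leaving out libraries.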

Additional observations from a re-analysis of the deposited data

Results flagged for a closer look

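Among 92 sets of values (22 named genes and the members' share of reads, in 4 categories), 12 held a library far from the others by Dixon's gap test at 95%. Chance gives this in about 1 of 20 independent sets. The 22 genes were picked by p in these data and vary together, so the count cannot be set against that rate. Of the 12, 6 were BD 1, the library with the fewest reads: RPL11 with 5323 normalized reads, RPL36 with 2124, RPL39 with 32.1, RPL8 with 3431, RPS16 with 1347 and RPS9 with 3936, each above the other 4 BD animals. In BD 1, 3 reads equal 24.1 normalized reads, so its RPL39 value rests on very few reads. LD 1, the next shallowest, was low for RPS20 with 1820.

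RPL29 stood high in LD 3 with 821 and in HD 5 with 954 normalized reads, and RPL31 in LD 3 with 833. RPS20 was high in VHD 1 with 3910, and RPL28 low in VHD 4 with 575. RPS20 also went opposite ways in 2 cohorts. In cohort 7a the 4 heavier animals (mean 2645 normalized reads) lay below all 4 lighter ones (mean 3170), while in cohort 7b the 1 heavier animal (3625) lay above all 4 lighter ones (mean 2731). This difference between cohorts was not tested.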

How the results depend on the processing

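No member passed the threshold in any comparison under any alternative or with any library left out (range 0 to 0 in all 7 counts). No paired analysis was possible because the labels give no replicate numbers that groups share. With each library left out, the members' median ran from −0.17 to −0.08 for heavier against lighter, −0.17 to −0.09 for VHD against LD, −0.12 to −0.02 for HD against LD and 0.05 to 0.18 for BD against LD. The BD median turned to −0.015 without the 3 libraries with fewest reads; the cause was not tested.

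Of 1370 alternative values of named genes, 35 changed sign, all of genes above 1-fold in the results, and none passed the threshold. In heavier against lighter drinkers, cohort 7a alone gave log2 values of −0.14 (RPL31), −0.19 (RPL39), −0.026 (RPS26) and −0.26 (RPS20). Library totals gave −0.00324 (RPS26) and −0.013 (RPS20). RPL39L had −0.11 without the cohort term and −0.021 with marker scores. RPS20 had −0.061 with robust priors and array weights and −0.068 without the 3 shallow libraries. Leaving out 1 library gave −0.046 to 0.99 for RPL31 (lowest without HD 7), −0.040 to 0.10 for RPS26, −0.21 to 0.34 for RPL39L and −0.10 to 0.056 for RPS20. In VHD against LD, RPL39 had −0.21 in cohort 7a and −0.16 with marker scores, RPS26 −0.016 with them, and RPL18 −0.024 with them and −0.00177 with robust priors and array weights; leaving out 1 library gave −0.0013 to 0.16 for RPS26 and −0.041 to 0.13 for RPL18. In HD against LD it gave −0.0095 to 1.20 for RPL31 and −0.054 to 0.62 for RPL39L. Depth limits RPL39 and RPL39L most.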
